A study of Caenorhabditis elegans with 9 samples.

Results

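The FMRFamide-like peptide genes of Caenorhabditis elegans, named flp, were described in whole worms that carry human LRRK2 in their neurons. Members were all protein-coding genes of the deposited expression table whose public name in the WBcel235 annotation is flp- followed by a number. That gave 31 of the 28749 genes in the table, and all 31 entered the tests. The study holds 9 libraries of poly(A) RNA from whole animals, 3 from each of 3 strains. WLZ3 carries wlzIs3 [snb-1p::Hsa-LRRK2(G2019S) + lin15(+)], an integrated array with the G2019S form of human LRRK2, a kinase linked to Parkinson disease. WLZ1 carries wlzIs1 [snb-1p::Hsa-LRRK2 + lin15(+)], the same design with the wild-type human protein. N2 (Bristol) is the wild-type strain and carries no transgene. All animals were kept at 20 °C on Escherichia coli OP50. The snb-1 promoter drives expression in neurons, and each transgenic strain is a single integrated line. Between WLZ3 and WLZ1, the effect of the LRRK2 form cannot be told apart from that of the insertion or other features of the array. Against N2, the effect of LRRK2 cannot be told apart from that of the insertion or the lin15(+) marker, which both transgenic strains carry. The labels give neither stage nor age nor sex, and do not say whether the libraries of a strain came from separate cultures. The p-values therefore measure only the spread between these libraries, which may be technical.

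Each flp gene encodes a precursor protein that is cut into short peptides, most of which end in an amidated Arg-Phe. The proprotein convertase EGL-3 and the carboxypeptidase EGL-21 trim the precursors, amidating enzymes cap the peptides, and neurons release them from dense-core vesicles. The peptides act on G protein-coupled receptors and modulate locomotion, sleep, feeding, egg laying and male mating. Most flp genes are expressed in small, partly overlapping sets of neurons, with some expression in muscle, glia or gonad.

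Expression is given as FPKM, read counts scaled by gene length and library total. Differences between strains are on the log2(FPKM + 1) scale, which understates the change of low genes. They were tested with limma over the 14862 genes that reached 1 FPKM in at least 3 libraries. "Rose" and "fell" below mean a Benjamini-Hochberg adjusted p under 0.05. Library totals recovered from the values were 44994277 to 51035227 reads in WLZ3, 50132430 to 53336537 in WLZ1 and 38128734 to 49302679 in N2. A flp gene other than flp-23 had 60 to 2892 reads in a library. Of the 31 genes, 30 reached 1 FPKM in all 9 libraries, and flp-23 passed the filter only through WLZ1. Counts of calls below are therefore over the other 30 genes, and flp-23 is described by its values alone. Of counts of 2 to 20 reads, 80.5% to 85.6% were even in a library, so that mostly both mates of a pair were counted and 6 reads stand for about 3 fragments.

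Marker genes of many tissues moved between the strains, and the counts stand beside the shares over all tested genes, of which 22.7% fell and 13.3% rose in WLZ3 and 41.1% fell and 26.6% rose in WLZ1. Of 18 pan-neuronal markers, 14 fell and 0 rose in WLZ3, with 0 higher also at an unadjusted p under 0.05, and 15 fell and 2 rose in WLZ1. Their median changes against N2 were -0.70 in WLZ3 and -1.11 in WLZ1, and their summed level was 712 to 728 FPKM in WLZ3, 698 to 746 in WLZ1 and 765 to 816 in N2. A large share of that sum was the tubulin gene tbb-1, at 381 to 413 FPKM in WLZ3, 433 to 482 in WLZ1 and 354 to 380 in N2. Without tbb-1 the sum was 315 to 332 FPKM in WLZ3, 264 to 274 in WLZ1 and 385 to 452 in N2, means of 75.3% of N2 in WLZ3 and 62.6% in WLZ1. In the neuronal lists that follow, counts are over genes that averaged 1 FPKM or more across all 9 libraries. Of 14 such markers of neuron classes that make FLP peptides, 11 fell in WLZ3 and 14 fell in WLZ1 against N2, and the summed level of the whole list was 70.6 to 76.9 FPKM in WLZ3, 31.5 to 44.0 in WLZ1 and 115 to 139 in N2. Among 9 such transmitter markers, 8 fell and 1 rose in WLZ3, and 7 fell and 2 rose in WLZ1. The summed level of that whole list was 204 to 205 FPKM in WLZ3, 228 to 242 in WLZ1 and 210 to 223 in N2. The sum was thus highest in WLZ1, although most of these genes fell there. Genes of other tissues also moved. Body wall muscle genes fell in 7 of 10 cases in WLZ3 and in 10 of 10 in WLZ1, with sums of 1979 to 2551 FPKM in WLZ3, 1189 to 1406 in WLZ1 and 2547 to 2948 in N2. Pharyngeal muscle genes fell in 7 of 8 cases in WLZ3 and in 8 of 8 in WLZ1. Of 10 epidermal genes, 5 fell and 1 rose in WLZ3 and 7 fell in WLZ1, and of 9 intestinal genes 1 fell in WLZ3 and 5 in WLZ1. The epidermal sum was 424 to 749 FPKM in WLZ3, 262 to 295 in WLZ1 and 476 to 509 in N2, so its WLZ3 and N2 ranges overlapped. Germ line genes rose in 7 of 12 cases in WLZ3 and in 12 of 12 in WLZ1, with sums of 2098 to 2189 FPKM in WLZ3, 2439 to 2540 in WLZ1 and 1799 to 1932 in N2. Sperm genes rose in 1 of 6 tested cases in WLZ3 and in 6 of 6 in WLZ1, with sums of 11.2 to 79.1 FPKM in WLZ3, 99.4 to 131 in WLZ1 and 3.48 to 11 in N2. No gene of these lists was at 0 in every library. Median changes against N2 were -0.34 in WLZ3 and -1.14 in WLZ1 for body wall muscle, and -1.01 and -1.97 for pharyngeal muscle. In the same order they were -0.32 and -1.04 for epidermis, -0.12 and -0.31 for intestine, 0.22 and 0.40 for germ line and 0.87 and 2.43 for sperm. In RNA from whole animals, fewer neurons, less RNA per neuron and a larger share of RNA from other tissues cannot be told apart. The part of tissue makeup in the flp results was not tested.

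The summed level of the 31 flp genes was lower in both LRRK2 strains than in N2, and lowest in WLZ1. It was 575, 532 and 603 FPKM in WLZ3, 483, 432 and 443 FPKM in WLZ1 and 735, 869 and 807 FPKM in N2. The 3 strains did not overlap. The WLZ3 mean of 570 ± 35.5 FPKM was 71.0% of the N2 mean, and the WLZ1 mean of 453 ± 27 FPKM was 56.3% of the N2 mean of 804 ± 67.4 FPKM (SD, n = 3 each). The family made up 0.0692% to 0.0775% of a library's summed FPKM in WLZ3, 0.0580% to 0.0636% in WLZ1 and 0.0947% to 0.112% in N2.

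A few genes carried much of this signal. The 5 most abundant genes were flp-28, flp-14, flp-1, flp-6 and flp-24 in each strain, in differing order, and held 46.8% of the summed flp level in WLZ3, 48.2% in WLZ1 and 42.6% in N2. By strain mean the first place belonged to flp-28 in each strain, with 72.6 ± 4.22 FPKM in WLZ3, 58.1 ± 2.39 in WLZ1 and 83.6 ± 6.85 in N2 (SD, n = 3). In N2, flp-1 followed at 80.3 ± 9.14 FPKM, within the spread of flp-28, and flp-14, flp-24 and flp-6 lay at 61.7 ± 2.85, 59.1 ± 8.44 and 57.9 ± 4.55 FPKM, also within each other's spread. At the low end of the 30 genes detected throughout, N2 levels were 5.10 ± 0.484 FPKM for flp-25, 6.44 ± 1.18 for flp-34, 6.72 ± 1.30 for flp-20 and 6.95 ± 0.795 for flp-33.

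**Figure D1:**
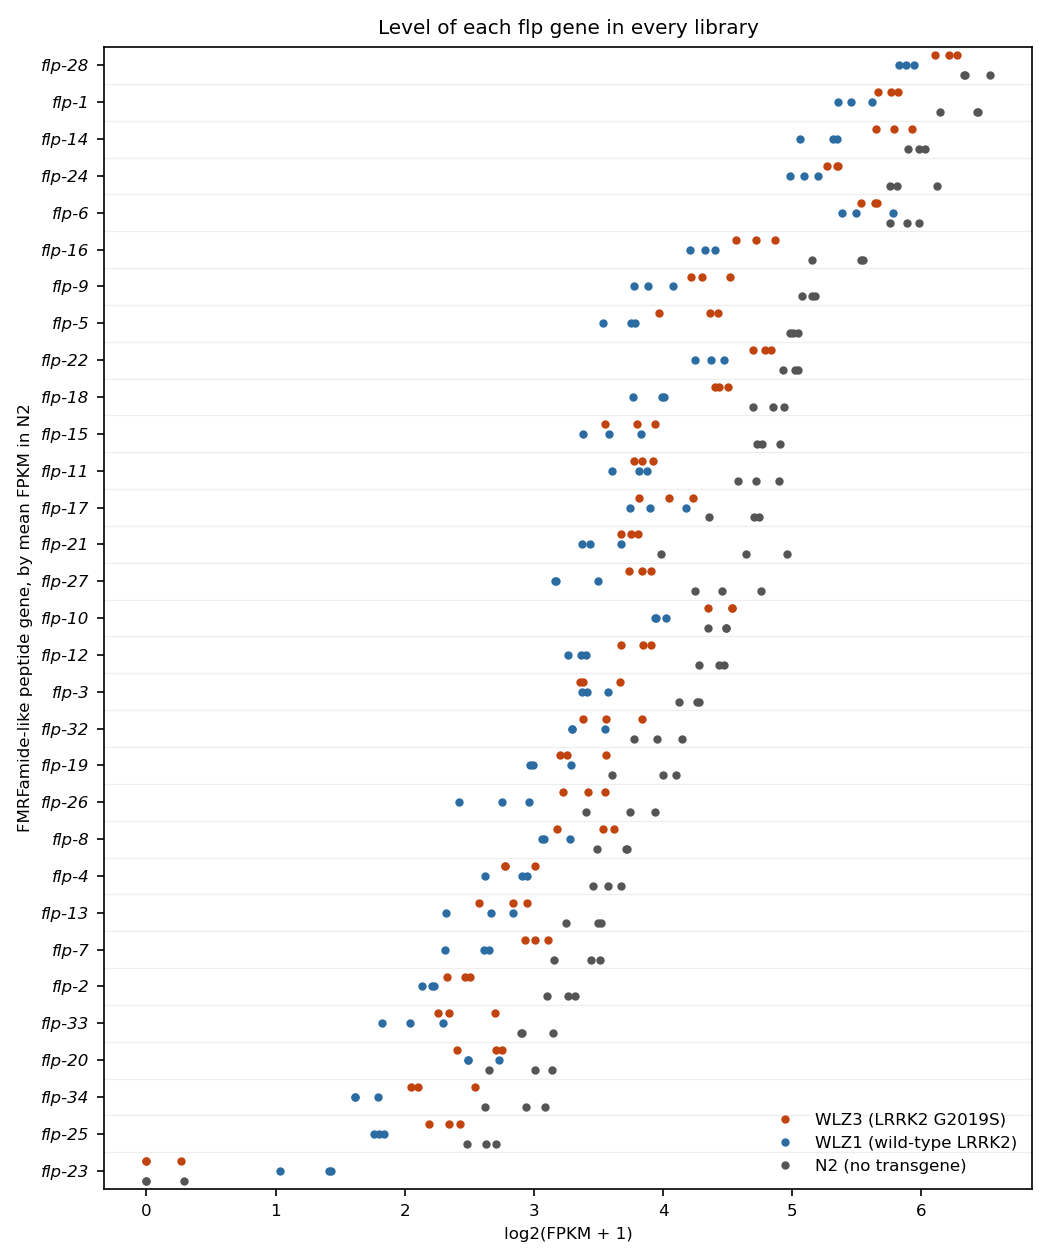
Level of each of the 31 flp genes in every library as log2(FPKM + 1), with WLZ3, WLZ1 and N2 from top to bottom in each row and rows ordered by the N2 mean. For 29 of the 31 genes the WLZ3 mean lies between the WLZ1 and the N2 mean, and flp-23 is above 1 FPKM in WLZ1 alone.

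Worms with wild-type LRRK2 had lower levels of nearly the whole family than N2. In WLZ1, 29 of 30 flp genes fell and flp-20 was not called. Of all tested genes, 67.6% were called, 41.1% as lower and 26.6% as higher. The median change was -0.83 over the flp genes and -0.13 over all genes. The 3 WLZ1 libraries lay below all 3 N2 libraries for 28 flp genes, against 42.5% of all tested genes. Mean FPKM was at least 2-fold lower than in N2 for 13 members. Of the 29 calls, 28 held when any 1 of the 9 libraries was left out, and 23 held under every alternative that tested the gene. With quantile normalization 24 genes fell, and flp-4, flp-8, flp-13, flp-25 and flp-32 lost their calls, with adjusted p of 0.0635 to 0.985. With median-of-ratios scaling flp-6 lost its call, at 0.177. Among single libraries the exception was flp-6, whose adjusted p was 0.0558 to 0.0628 without N2 replicate 3, WLZ1 replicate 1 or WLZ1 replicate 3.

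The steepest fall on the log2 scale was that of flp-5. Its level was 12.8, 10.6 and 12.5 FPKM in WLZ1 and 32.1, 31.1 and 30.6 FPKM in N2, so every WLZ1 library was below every N2 library. The log2 change was -1.32 ± 0.12 (SE, limma adjusted p = 1.75e-05), and the WLZ1 mean was 38.3% of the N2 mean. Both flp-9 and flp-27 fell to a like extent. For flp-9 the values were 15.9, 12.7 and 13.8 FPKM in WLZ1 and 34.6, 35.2 and 32.7 FPKM in N2, a log2 change of -1.22 ± 0.09 (limma adjusted p = 1.01e-05). For flp-27 they were 10.3, 8.03 and 7.94 FPKM in WLZ1 and 18, 26.1 and 21 FPKM in N2, a log2 change of -1.21 ± 0.14 (limma adjusted p = 6.83e-05). The libraries of the strains did not overlap for either gene. Among the 30 genes detected throughout, the largest fold difference in mean FPKM belonged to flp-34, whose peptides act in aversive olfactory learning through the receptor NPR-11. It had 2.46, 2.06 and 2.07 FPKM in WLZ1 and 5.16, 7.48 and 6.66 FPKM in N2, and the WLZ1 mean was 34.2% of N2 (log2 change -1.21 ± 0.16, limma adjusted p = 0.000196). The pharyngeal neuron gene flp-15 had 13.2, 9.39 and 11 FPKM in WLZ1 and 26.3, 29.0 and 25.5 FPKM in N2, a log2 change of -1.21 ± 0.13 (limma adjusted p = 5.13e-05). Here too the lowest N2 library was above every WLZ1 library.

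The genes that changed least in WLZ1 were flp-6 and flp-20. The AFD thermosensory neuron gene flp-6 had 44.0, 54.1 and 40.9 FPKM in WLZ1 and 53.1, 58.4 and 62.2 FPKM in N2, and the highest WLZ1 library exceeded the lowest N2 library. Its log2 change was -0.32 ± 0.10 (limma adjusted p = 0.017). The touch receptor neuron gene flp-20 had 5.64, 4.62 and 4.61 FPKM in WLZ1 and 5.30, 7.03 and 7.83 FPKM in N2. These ranges overlapped, and the log2 change of -0.36 ± 0.15 did not pass (limma adjusted p = 0.0538), with a 95% interval of -0.70 to -0.03, and was 0.21 with quantile normalization. Without N2 replicate 1, WLZ1 replicate 1 or WLZ3 replicate 2 it passed, at 0.0107 to 0.0447.

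Against the rest of the family, flp-23 was highest in WLZ1. It had 0, 0 and 0.206 FPKM in WLZ3, 1.70, 1.05 and 1.67 FPKM in WLZ1 and 0, 0.223 and 0 FPKM in N2. These values stand for 0, 0 and 6 reads in WLZ3, 52, 30 and 51 reads in WLZ1 and 0, 6 and 0 reads in N2, so all 3 WLZ1 libraries held reads and 4 of the other 6 held none. The gene lies on chromosome III at 8650767 to 8652194 on the plus strand of WBcel235. Because the gene passed the filter on low values through WLZ1 alone, it had to differ, and its test is not used as a result.

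**Figure D2:**
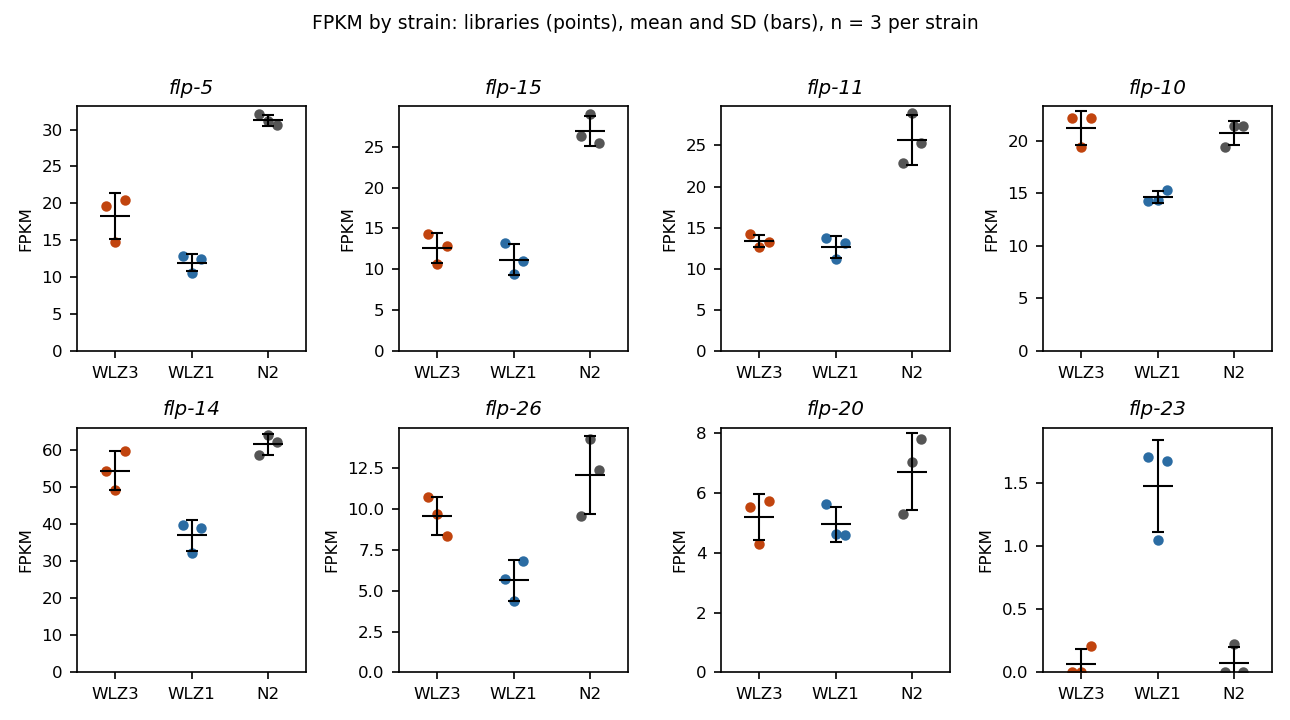
FPKM in every library for 8 flp genes, with WLZ3 left, WLZ1 in the middle and N2 right; points are libraries, horizontal lines are strain means and bars are the SD (n = 3), and each panel has its own axis from 0. The WLZ3 points lie near WLZ1 for flp-15 and flp-11 and near N2 for flp-10 and flp-14, while flp-23 stands above 1 FPKM in WLZ1 alone.

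Worms with G2019S LRRK2 had lower flp levels than N2 too. In WLZ3, 21 of 30 flp genes fell and 9 were not called. Of all tested genes, 36% were called, 22.7% as lower and 13.3% as higher. By limma 0 flp genes rose, and 0 were higher at an unadjusted p under 0.05. The median change was -0.57 over the flp genes and -0.02 over all genes. Libraries did not overlap for 24 flp genes, all lower in WLZ3, against 29.7% of all tested genes. The mean was at least 2-fold lower for 1 gene, flp-15. All 21 genes that fell in WLZ3 also fell in WLZ1, as did 29 of all 30, and both comparisons share the N2 libraries. The count was 13 without N2 replicate 2, where the count over all genes was 2113 in place of 3378, and 15 without N2 replicate 3 or without WLZ3 replicate 2. The calls lost without at least 1 library were those of flp-13, flp-17, flp-19, flp-21, flp-22, flp-28, flp-33 and flp-34, with adjusted p of 0.0504 to 0.138, and the other 13 held throughout.

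In WLZ3 flp-15 had 14.3, 10.7 and 12.9 FPKM, against the N2 values of 25.5 to 29.0 given above. The groups did not overlap, the log2 change was -1.04 ± 0.13 (limma adjusted p = 0.00116), and the WLZ3 mean was 46.9% of N2. Next came flp-11, whose peptides are released by the RIS neuron and promote sleep. It had 14.2, 12.7 and 13.3 FPKM in WLZ3, 13.7, 11.2 and 13.1 FPKM in WLZ1 and 22.9, 28.9 and 25.3 FPKM in N2. Both LRRK2 strains lay well below N2 and overlapped each other, with log2 changes against N2 of -0.88 ± 0.10 in WLZ3 (limma adjusted p = 0.000881) and -0.97 ± 0.10 in WLZ1 (limma adjusted p = 3.93e-05). The arousal peptide gene flp-2, whose product acts through FRPR-18, had 4.69, 4.01 and 4.53 FPKM in WLZ3, 3.63, 3.40 and 3.69 FPKM in WLZ1 and 8.6, 8.96 and 7.58 FPKM in N2. The strains did not overlap, and the log2 change in WLZ3 was -0.79 ± 0.09 (limma adjusted p = 0.000986). For flp-9 the WLZ3 values were 18.7, 17.6 and 21.9 FPKM, below the N2 range of 32.7 to 35.2 (log2 change -0.79 ± 0.09, limma adjusted p = 0.00107). For flp-5 they were 19.6, 14.7 and 20.5 FPKM, below the N2 range of 30.6 to 32.1 (log2 change -0.76 ± 0.12, limma adjusted p = 0.00255).

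The social feeding gene flp-21, a ligand of NPR-1, had the widest relative spread in N2 among those 30 genes. It had 12.5, 13 and 11.8 FPKM in WLZ3, 11.8, 9.79 and 9.35 FPKM in WLZ1 and 14.8, 30.2 and 24 FPKM in N2. The lowest N2 library was still above all LRRK2 libraries, and the log2 change in WLZ3 was -0.78 ± 0.21 (limma adjusted p = 0.0205), a call lost without N2 replicate 2, N2 replicate 3 or WLZ3 replicate 3, at 0.0562 to 0.0664.

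The 9 genes not called in WLZ3 were flp-6, flp-7, flp-8, flp-10, flp-14, flp-20, flp-25, flp-26 and flp-32. For flp-10 the WLZ3 and N2 levels were close, at 22.2, 19.4 and 22.2 FPKM in WLZ3 and 19.4, 21.4 and 21.4 FPKM in N2, and its difference was 0.04 with a 95% interval of -0.12 to 0.19. For flp-14 the difference was -0.18 with an interval of -0.39 to 0.03, and for flp-8 it was -0.19 with an interval of -0.48 to 0.09, and 0.02 with quantile normalization. The intervals of flp-6, flp-7, flp-25 and flp-32 lay below 0, with adjusted p of 0.0516 to 0.0651.

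**Figure D3:**
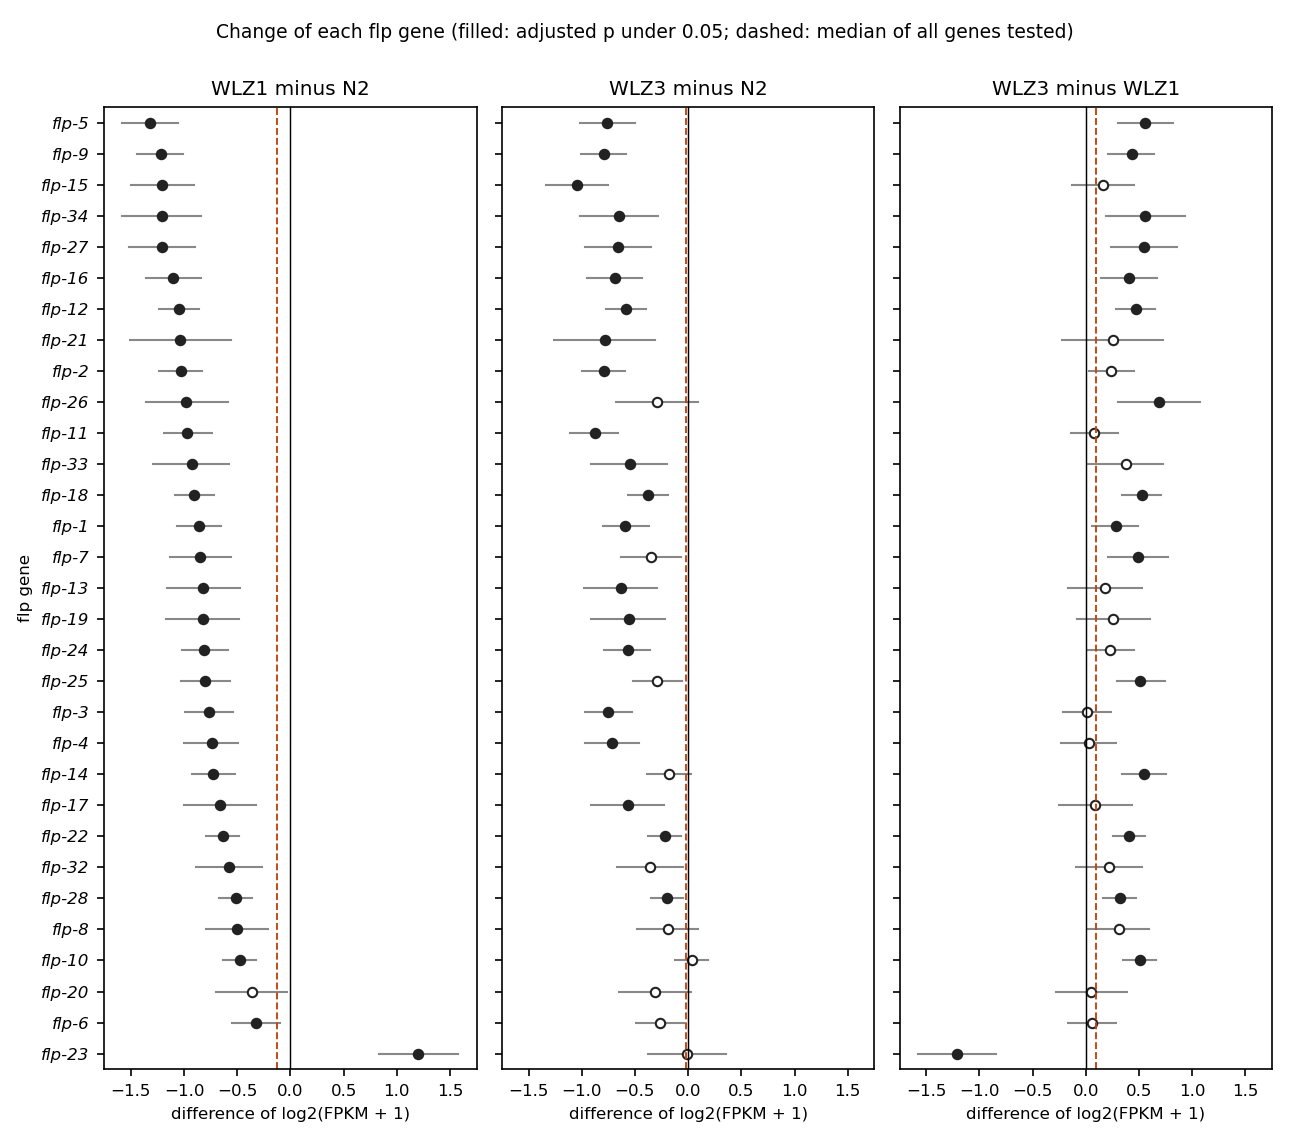
Difference in log2(FPKM + 1) of each flp gene in 3 panels, WLZ1 minus N2, WLZ3 minus N2, then WLZ3 minus WLZ1, with bars for the 95% interval, filled points for an adjusted p under 0.05 and a dashed line at the median of all tested genes. In WLZ1 minus N2, 29 filled points lie below 0, and in WLZ3 minus WLZ1, 15 filled points lie above 0. In both panels the point of flp-23, which passed the filter through WLZ1 alone, is filled and lies on the other side. As that gene had to differ, its filled points are not a result.

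Set directly against WLZ1, WLZ3 had the higher level for all 30 genes as deposited, for 24 with median-of-ratios scaling and for 20 with quantile normalization. In WLZ3, 15 of 30 flp genes were higher than in WLZ1 and passed the test, and 15 were not called. Of all tested genes, 42.1% were called, 29.6% as higher and 12.6% as lower. The median difference was 0.31 over the flp genes and 0.10 over all genes. All 3 WLZ3 libraries were above all 3 WLZ1 libraries for 18 flp genes, against 37.1% of all tested genes, while 18.5% of all tested genes were lower without overlap. All 15 genes that were higher in WLZ3 than in WLZ1 had fallen in WLZ1 against N2, as had 29 of all 30. That overlap was thus nearly fixed in advance, and the comparisons share the WLZ1 libraries. With quantile normalization 7 genes were called higher and flp-4 lower, and flp-7, flp-9, flp-12, flp-16, flp-25, flp-26, flp-27 and flp-34 lost their calls, with adjusted p of 0.0512 to 0.304. Of the 15 calls, 6 held under every alternative that tested the gene. The calls of flp-1, flp-7, flp-16 and flp-34 were lost without at least 1 library, with adjusted p of 0.0501 to 0.125.

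The largest rise was that of flp-26, with 10.7, 9.69 and 8.36 FPKM in WLZ3, 5.73, 4.35 and 6.81 FPKM in WLZ1 and 9.57, 14.3 and 12.4 FPKM in N2. The WLZ3 libraries were above all WLZ1 libraries and overlapped N2. WLZ3 exceeded WLZ1 by 0.69 ± 0.17 (limma adjusted p = 0.0121), and by 0.35 with quantile normalization (limma adjusted p = 0.113). The gene flp-14, expressed in the RID neuron and linked there to sustained forward movement, had 54.3, 49.3 and 59.9 FPKM in WLZ3, 39.8, 32.3 and 38.9 FPKM in WLZ1 and 58.6, 64.2 and 62.2 FPKM in N2. WLZ3 again overlapped N2, and the difference from WLZ1 was 0.55 ± 0.09 (limma adjusted p = 0.00191). The egg-laying inhibitor gene flp-10 had 14.3, 14.4 and 15.3 FPKM in WLZ1, below every WLZ3 and N2 library given above, and the difference between WLZ3 and WLZ1 was 0.51 ± 0.07 (limma adjusted p = 0.000692). For flp-5 all WLZ3 values, 14.7 to 20.5 FPKM, were above the WLZ1 values of 10.6 to 12.8 FPKM, a difference of 0.56 ± 0.12 (limma adjusted p = 0.00524). For flp-27 the values were 12.3, 14 and 13.3 FPKM in WLZ3 and 7.94 to 10.3 FPKM in WLZ1, a difference of 0.55 ± 0.14 (limma adjusted p = 0.0119). After quantile normalization it was 0.27 (limma adjusted p = 0.135). For flp-34 they were 3.30, 3.14 and 4.84 FPKM in WLZ3 and 2.06 to 2.46 FPKM in WLZ1, a difference of 0.56 ± 0.16 (limma adjusted p = 0.0233, and 0.0634 to 0.0782 without WLZ1 replicate 2, WLZ1 replicate 3 or WLZ3 replicate 3). After quantile normalization the flp-34 difference was 0.25 (limma adjusted p = 0.185).

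For several genes the difference between WLZ3 and WLZ1 was small. The difference was 0.01 for flp-3 (95% interval -0.21 to 0.24), 0.03 for flp-4 (-0.23 to 0.28), 0.06 for flp-6 (-0.17 to 0.28), 0.08 for flp-11 (-0.14 to 0.30) and 0.09 for flp-17 (-0.25 to 0.43). The signs of flp-3, flp-4, flp-11 and flp-17 turned negative under both other scalings tried, and that of flp-6 under median-of-ratios scaling. With quantile normalization flp-4 was called lower in WLZ3 than in WLZ1 (-0.32, limma adjusted p = 0.0237), and its call in WLZ1 against N2 was lost (-0.20, limma adjusted p = 0.085). As deposited, flp-3, flp-4, flp-11 and flp-17 fell against N2 in both strains, to 57.3%, 57.3%, 52.2% and 66.0% of the N2 mean in WLZ3 and to 56.5%, 56.2%, 49.2% and 61.8% in WLZ1. The flp-17 call in WLZ3 was lost without N2 replicate 2, N2 replicate 3 or WLZ3 replicate 2, at 0.0595 to 0.0679.

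Genes were next taken by the behaviours they are known for. Of all 30 flp genes, 21 fell in WLZ3 and 29 in WLZ1, and no group below was tested against those shares. Of the sleep-linked genes flp-11, flp-13 and flp-24, all 3 fell in both strains. The flp-13 call was lost in WLZ1 with quantile normalization (-0.25, limma adjusted p = 0.128) and in WLZ3 without N2 replicate 2 (limma adjusted p = 0.0504). The ALA neuron genes flp-13 and flp-24, which act in sleep after stress, averaged 5.95 ± 0.898 and 39.1 ± 1.38 FPKM in WLZ3, 5.16 ± 1.10 and 33.2 ± 2.59 FPKM in WLZ1 and 9.76 ± 1.11 and 59.1 ± 8.44 FPKM in N2. In the ligands of the egg-laying receptor EGL-6, flp-17 averaged 15.5 ± 2.36 FPKM in WLZ3, 14.5 ± 2.39 in WLZ1 and 23.5 ± 3.42 in N2 and fell in both strains, while flp-10 fell in WLZ1 and was not called in WLZ3. WLZ3 exceeded WLZ1 by 0.51 for flp-10 and by 0.09 for flp-17, the first past the test, and the gap between these genes was not tested.

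Other members were taken 1 by 1. The fat-loss signal gene flp-7, which acts on NPR-22 in the intestine, averaged 7.11 ± 0.492 FPKM in WLZ3, 4.79 ± 0.716 in WLZ1 and 9.40 ± 1.31 in N2. Its WLZ1 mean was 50.9% of N2 and its WLZ3 mean 75.6%, a change that was not called. The foraging gene flp-18, whose peptides act on NPR-1, NPR-4 and NPR-5, averaged 20.8 ± 0.778 FPKM in WLZ3, 14.2 ± 1.36 in WLZ1 and 27.5 ± 2.35 in N2, and fell in both strains. The AVK interneuron gene flp-1, a modulator of locomotion, averaged 53.0 ± 2.97 FPKM in WLZ3, 43.6 ± 4.12 in WLZ1 and 80.3 ± 9.14 in N2, and also fell in both. Of 4 genes that act in male turning, flp-12 fell in both strains, flp-8 and flp-10 fell in WLZ1 (flp-8 not with quantile normalization, at 0.00), and flp-20 was called in neither. The mean of flp-12 was 13.1 ± 1.13 FPKM in WLZ3, 9.17 ± 0.487 in WLZ1 and 20.1 ± 1.5 in N2.

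The remaining members fell in WLZ1 by log2 changes of -1.10 for flp-16, -0.93 for flp-33, -0.82 for flp-19, -0.80 for flp-25, -0.63 for flp-22, -0.58 for flp-32 and -0.51 for flp-28. Of these 7 genes, 5 fell in WLZ3, and flp-25 and flp-32 were not called there. The change was set against the level of the gene. Over the 30 genes other than flp-23, Pearson's r between mean N2 level and change, both on the log2(FPKM + 1) scale, was 0.03 for WLZ3 and 0.05 for WLZ1 against N2, as a description over genes that share the same libraries.

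Many genes that encode receptors of FLP peptides were lower as well. Of 29 listed receptors, 17 passed the filter on low values, and 2 of these reached 1 FPKM in N2 alone. Over the 14 receptors with a mean of at least 1 FPKM over all libraries, 8 fell and 0 rose in WLZ3, where 22.7% of all tested genes fell, and 9 fell and 0 rose in WLZ1, where 41.1% fell. Of the 17, 0 were higher by limma in either strain, also at an unadjusted p under 0.05. With no filter, 8 of the 29 fell in WLZ3 and 23 fell in WLZ1, beside 12.3% and 26.9% of the 26089 genes then tested. By the filter used here 10 of the 17 fell in WLZ3, a count that lay between 5 and 8 when 1 library was left out, with 5 without N2 replicate 2 and 6 without any 1 of the WLZ3 libraries. It was 5 with the replicate number as a block, and with quantile normalization 4 fell and 1 rose. In WLZ3 against WLZ1, 5 of the 17 receptors were higher and passed, a share near the 29.6% of all tested genes, and 0 were lower, also at an unadjusted p under 0.05. That count was 3 without WLZ1 replicate 1, WLZ1 replicate 2 or WLZ3 replicate 3, and with quantile normalization 1 receptor was called higher and 1 lower.

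The receptor of FLP-13, dmsr-1, had the steepest fall of the list in WLZ1. Its level was 4.91, 4.34 and 4.69 FPKM in WLZ3, 2.47, 2.36 and 2.30 FPKM in WLZ1 and 6.08, 8.88 and 7.81 FPKM in N2. The 3 strains did not overlap, with log2 changes against N2 of -0.59 in WLZ3 (limma adjusted p = 0.0078) and -1.33 in WLZ1 (limma adjusted p = 2.32e-05). The FLP-18 receptor npr-5 had 5.03, 4.88 and 4.75 FPKM in WLZ3, 3.45, 3.00 and 3.44 FPKM in WLZ1 and 8.31, 7.46 and 6.99 FPKM in N2, again without overlap. The FLP-2 receptor frpr-18 had 1.04, 0.393 and 0.792 FPKM in WLZ3, 0.687, 0.378 and 0.688 FPKM in WLZ1 and 1.77, 1.85 and 1.88 FPKM in N2. Both LRRK2 strains were below N2 and overlapped each other. Outside N2 only WLZ3 replicate 1 reached 1 FPKM, so frpr-18 passed the filter through N2, where it was highest. The receptor of the flp-10 and flp-17 products, egl-6, went the other way, with 3.64, 4.01 and 3.82 FPKM in WLZ3, 3.67, 3.80 and 3.74 FPKM in WLZ1 and 3.18, 3.47 and 3.12 FPKM in N2. All LRRK2 libraries were above all N2 libraries, but its differences of 0.18 in WLZ3 and 0.15 in WLZ1 did not pass, with limma adjusted p of 0.122 and 0.131. Median-of-ratios scaling let egl-6 pass in WLZ1 (0.27, limma adjusted p = 0.0189), and with quantile normalization it passed in both, by 0.39 in WLZ3 and 0.71 in WLZ1. This gene was chosen after its values were seen.

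Most genes of the machinery that makes and releases the peptides fell too, and 1 rose. Of 22 genes for peptide cutting, amidation, vesicle release and breakdown, 15 fell and 1 rose in WLZ3, and 19 fell and 1 rose in WLZ1, where 22.7% of all tested genes fell in WLZ3 and 41.1% in WLZ1. With quantile normalization 13 fell and 1 rose in WLZ3, and 15 fell and 1 rose in WLZ1. The dense-core vesicle protein gene ida-1 had 16.5, 15.7 and 18.5 FPKM in WLZ3, 11.2, 9.94 and 12.1 FPKM in WLZ1 and 31.6, 42.6 and 38.6 FPKM in N2, with log2 changes of -1.10 in WLZ3 (limma adjusted p = 0.000668) and -1.67 in WLZ1 (limma adjusted p = 5.97e-06). The convertase gene egl-3 had 25.1, 21.8 and 27.1 FPKM in WLZ3, 21.3, 20.2 and 20.0 FPKM in WLZ1 and 41.9, 44.4 and 42.3 FPKM in N2. Its libraries in both LRRK2 strains were below every N2 library, and egl-3 also counts among the pan-neuronal markers above. The gene that rose was aex-5, a convertase that acts in intestine and muscle in the defecation cycle, with 44.9, 44.8 and 49.7 FPKM in WLZ3, 27.4, 27.8 and 29.5 FPKM in WLZ1 and 7.6, 5.79 and 7.63 FPKM in N2. The strains did not overlap, and the log2 changes were 2.58 in WLZ3 (limma adjusted p = 1.9e-06) and 1.88 in WLZ1 (limma adjusted p = 1.66e-06). In WLZ3 against WLZ1, 13 of the 22 genes were higher and passed (7 with quantile normalization), where 29.6% of all tested genes were, and 0 were lower, also at an unadjusted p under 0.05.

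**Figure D4:**
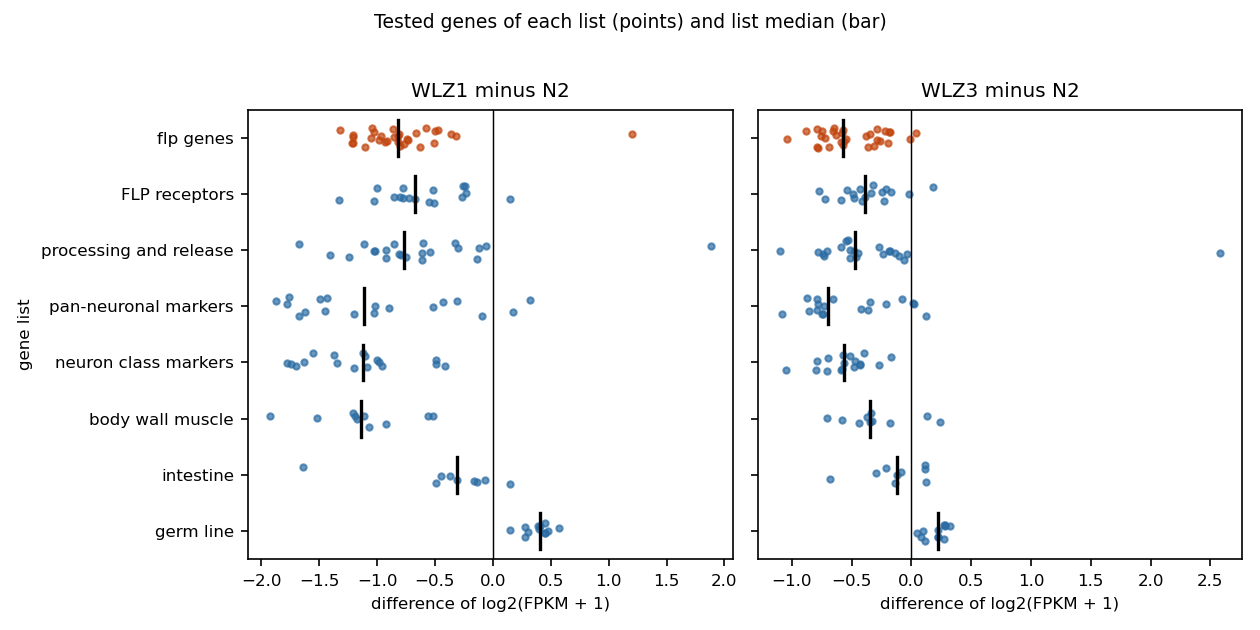
Differences in log2(FPKM + 1) of every tested gene of the flp family and of 7 other gene lists, for WLZ1 minus N2 and WLZ3 minus N2; each point is a gene and the bars are list medians. The flp median over all 31 genes is -0.82 in WLZ1 and -0.57 in WLZ3, and the points of the germ line list all lie above 0.

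By position, 13 of the 31 flp genes (41.9%) lie on chromosome X, which holds 13.7% of the protein-coding genes in the table. Over all genes, those on X had lower medians than autosomal ones, with a median change over 2106 tested X genes of -0.24 in WLZ3 and -0.55 in WLZ1, beside 0.01 in WLZ3 and -0.04 in WLZ1 over 12740 autosomal genes. That difference was not tested. The flp genes on X had medians of -0.38 in WLZ3 and -0.85 in WLZ1, and the 17 on autosomes other than flp-23 had medians of -0.59 in WLZ3 and -0.82 in WLZ1. In WLZ1, 12 of 13 flp genes on X and all 17 of these autosomal ones fell, beside 67.5% of all tested genes on X and 36.7% of those on autosomes. The neighbours on X, flp-28 (10087314 to 10087966), flp-3 (10091946 to 10092964) and flp-2 (10094430 to 10095245), all on the minus strand of WBcel235, lie within the span of W07E11.1 on the opposite strand and share no exon bases with it. All 3 fell in WLZ1, flp-28 to 69.5% of its N2 mean, flp-3 to 56.5% and flp-2 to 42.7%, and the gaps between them were not tested. Exons of flp-8, flp-11, flp-16, flp-17, flp-19 and flp-33 overlap another gene by at most 21 bases, and the labels do not say whether reads were counted by strand.

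The genes whose pattern over the 9 libraries was most like the mean of the flp genes were K09E9.4, clik-2, glb-24, C07E3.3 and glt-4, with Pearson's r of 0.994 to 0.996. Of these, glb-24 reached 1 FPKM in N2 alone and passed the filter only through that strain, which favoured a pattern high in N2. As the libraries fall into 3 strains, r mostly reflects the order of strain means. K09E9.4, on X, averaged 9.92 ± 1.91 FPKM in WLZ3, 6.22 ± 0.567 in WLZ1 and 20.1 ± 4.32 in N2 (SD, n = 3).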

How the data were processed

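The authors deposited 1 table of FPKM values for 28749 genes and 9 libraries, 1 column each. The submitters' processing notes name WBcel235 as the build and list HISAT2 2.2.1, then featureCounts 2.0.3, besides fastp 0.23.2. The formula behind FPKM is not given there. Names matched for 28744 genes. FPKM times exon length (Ensembl release 115) gave whole reads, within 0.01, for 24145 of 26089 genes above 0 (92.55%), which set the library totals. For flp genes, 27 did so at the annotated length and 4 at another. Counts of reads cover counting error only, and 6 reads in a gene of 1 kb equal 0.112 to 0.157 FPKM.

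limma 3.58.1 (R 4.3.3, with trend) was fitted to log2(FPKM + 1) over all 9 libraries with 1 mean per strain, for genes at 1 FPKM or more in at least 3 libraries, after a check on simulated data. In that check 42% of log2 changes of 0.5 and 96% of changes of 1 were recovered, and 4.83% of calls were false. It changed 200 of 14862 genes, whereas 67.6% were called in WLZ1 against N2 in the data. Adjustment (Benjamini-Hochberg) ran over all 14862 genes. The numbers of the libraries did not serve to pair them. In the flp family, values per library were to be given for the 6 called genes with the largest change per comparison, called genes against the majority and, for WLZ1 against N2, genes not called. This rule ran over all 31 genes, so flp-23 took a place for WLZ1 against N2 and for WLZ3 against WLZ1. Values of flp-6 and flp-10 were given besides. In other lists, up to 4 called genes with the largest change, or the few of the rarer direction, could be named. In all, 17 alternatives were tried. Human LRRK2 RNA was not analysed here. Members and lists were chosen with earlier results of these data known. Python 3.11.15, pandas 2.3.3, numpy 2.4.6, scipy 1.17.1 and matplotlib 3.10.9 were used.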

Additional observations from a re-analysis of the deposited data

How the results depend on the processing

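Of 1569 values for single flp genes under the 17 alternatives, 1447 kept their direction and their side of the threshold, 69 lost the call, 21 gained one and 32 changed sign. The cause of these and the changes below was not tested. By construction, a stricter filter tests fewer genes and leaving out a library leaves fewer samples. In 2 of the 32 a call was involved, both with quantile normalization: flp-8 in WLZ1 against N2 (0.00, limma adjusted p = 0.985) and flp-4 in WLZ3 against WLZ1 (-0.32, limma adjusted p = 0.0237). The other 30 were of differences not called before or after. With quantile normalization flp-20 was 0.21 in WLZ1 and flp-8 was 0.02 in WLZ3 against N2. For WLZ3 against WLZ1, quantile normalization gave -0.10 for flp-2 and flp-17, -0.25 for flp-3, -0.13 for flp-11, -0.17 for flp-13, -0.07 for flp-15, -0.05 for flp-19 and flp-32 and -0.28 for flp-20. Median-of-ratios scaling gave -0.10 for flp-3, -0.08 for flp-4, -0.06 for flp-6, -0.03 for flp-11, -0.02 for flp-17 and -0.05 for flp-20. With 1 library left out, WLZ3 against N2 ranged over -0.01 to 0.10 for flp-10 and -0.10 to 0.09 for flp-23, and WLZ3 against WLZ1 over -0.08 to 0.07 for flp-3, -0.07 to 0.09 for flp-4, -0.02 to 0.17 for flp-6, -0.01 to 0.21 for flp-17 and -0.01 to 0.16 for flp-20.

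With median-of-ratios scaling the flp medians were -0.69 for WLZ1 against N2 and 0.20 for WLZ3 against WLZ1, and with quantile normalization -0.46 and 0.13, and -0.41 for WLZ3 against N2. The median of all genes for WLZ1 against N2 was -0.13 as deposited, -0.01 under the first of these, 0.07 under the second and 0.02 when genes needed a mean of 5 FPKM. Relative to it, the flp median was -0.69 as deposited, -0.69 under the first scaling and -0.53 under the second. The share of called genes that were higher was 39.3%, 50.9% and 56.5% for WLZ1 against N2, 36.9%, 43.4% and 51.3% for WLZ3 against N2, and 70.2%, 48.1% and 47.9% for WLZ3 against WLZ1, in the same order (deposited, first, second). Under these scalings 1 receptor rose in WLZ1. Quantile normalization gave 4061 genes lower in WLZ1, 2245 lower in WLZ3 and 2544 higher in WLZ3 than WLZ1. For WLZ3 against N2 it left 4 receptors lower and 1 higher. For WLZ3 against WLZ1 it gave 7 flp genes higher and 2 lower (flp-4 and flp-23), 1 receptor higher and 1 lower, and 7 processing genes higher. Median-of-ratios scaling gave 3921 genes lower in WLZ3 than WLZ1.

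When genes needed a mean of 5 FPKM, 0 flp genes rose in WLZ1 and 0 were lower in WLZ3 than WLZ1, since flp-23, the gene behind both counts of 1 before, was not tested. Counts and medians here are over all 31 flp genes. Of the 9524 genes then tested, 3278 were lower in WLZ1, 1877 lower in WLZ3 and 2468 higher in WLZ3 than WLZ1. Only 2 receptors passed that filter, of which 2 were lower in WLZ1, 1 lower in WLZ3 and 2 higher in WLZ3 than WLZ1. With no filter, 23 of 29 receptors fell in WLZ1, 8 fell in WLZ3 and 8 were higher in WLZ3 than WLZ1. The shares over the 26089 genes then tested were 26.9%, 12.3% and 15.5%, in that order. With a pseudocount of 0.1, or only the compared strains in the fit, 6 receptors fell in WLZ3.

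With 1 library left out, the flp genes that fell in WLZ3 numbered 13 to 25, the flp median in WLZ1 was -0.95 to -0.77, receptors that fell in WLZ3 numbered 5 to 8 and receptors higher in WLZ3 than WLZ1 numbered 3 to 6. Over all genes, 2113 to 3629 fell and 1038 to 2094 rose in WLZ3 against N2, and 1066 to 1973 were lower in WLZ3 than WLZ1.

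Libraries with the same number did not deviate together, with correlations of -0.15 to 0.24. With the replicate number as a block, 29 flp genes fell in WLZ1, 19 fell in WLZ3 and 14 were higher in WLZ3 than WLZ1, 5 receptors fell in WLZ3 and 3 were higher in WLZ3 than WLZ1.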
